A study of Mus musculus with 7 samples.

Results

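The 33 genes described here encode transcription factors, sensors and effectors of the interferon response and parts of the machinery that presents antigen on class I molecules of the major histocompatibility complex. They were chosen by name, and their probes were found through the gene symbols of the array's annotation. Of the 33 genes, 32 had at least 1 probe (53 probes in all, of 25697 on the array) and 22 could be tested, among 9720 tested genes and 14067 tested probes. Only probes with a detection p-value below 0.05 in at least 3 of the 7 arrays were tested. Arcuate nucleus tissue came from male C57BL/6J mice of 40 weeks that were moved from chow to a high-fat diet (45% of energy as fat) at 8 to 10 weeks and stayed on it for 30 weeks. The Dusp8-deficient group (4 arrays) lacks Dusp8, a phosphatase of mitogen-activated protein kinases, and the control group (3 arrays) is made of wild-type littermates on the same diet. All mice of both groups ate the high-fat diet, so no array shows the genes on chow. The sources used here do not state how the deficient allele was made or whether an array held RNA of more than 1 mouse.

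Interferons are secreted when cells sense foreign nucleic acid or inflammation. Type I interferons act through Jak kinases on a complex that holds Stat2 and Irf9 and binds the interferon-stimulated response element in the promoters of its target genes, while interferon gamma acts on promoters with the gamma-activated sequence and through Irf1. In the brain, microglia, other glia and endothelial cells carry most of the resting response, and class I presentation is kept low in neurons.

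Short stretches of 7 member promoters are shown because they carry the response element whose target genes are described below. A match, in capitals, is GAAA, any 2 bases and GAAA again, on either strand, and each stretch is written 5′ to 3′ on the strand of its gene, from RefSeq sequence of GRCm38.p6. The first 5 belong to tested members and the last 2, Ifit1 and Oas1a, to members below the detection filter.
B2m (chr2:122147523-122147582, plus strand): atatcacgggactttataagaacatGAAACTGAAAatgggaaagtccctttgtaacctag
Bst2 (chr8:71537568-71537627, minus strand): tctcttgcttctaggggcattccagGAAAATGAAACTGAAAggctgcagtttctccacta
Isg15 (chr4:156200862-156200921, minus strand): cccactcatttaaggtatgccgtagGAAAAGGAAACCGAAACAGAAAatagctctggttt
Ifit3 (chr19:34583348-34583421, plus strand): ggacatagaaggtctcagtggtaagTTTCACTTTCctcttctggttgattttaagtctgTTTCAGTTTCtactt
Gbp3 (chr3:142559974-142560033, plus strand): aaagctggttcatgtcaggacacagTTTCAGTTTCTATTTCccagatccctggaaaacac
Ifit1 (chr19:34640760-34640819, plus strand): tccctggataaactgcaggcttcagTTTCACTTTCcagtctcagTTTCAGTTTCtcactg
Oas1a (chr5:120907526-120907585, minus strand): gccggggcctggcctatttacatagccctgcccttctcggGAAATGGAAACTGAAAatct

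The match begins 139 bases before the start of B2m and 78 bases before that of Isg15, where 3 overlapping matches form 1 run. Bst2 holds 2 overlapping matches, the first 130 bases before its start, and Ifit3 holds 2 separate ones, 156 and 122 bases before its start. The search covered 300 bases, from 250 before to 50 after a start. A match was held by 12 of the 28 members with a promoter entry, against 1079 of 27025 genes (3.99%). The gamma-activated sequence (TTC, any 3 bases, GAA, on either strand) was found in 7 of the 28 members, against 9.55% of all genes. In Bst2 and Ifitm3 a match to the gamma-activated sequence overlaps a match to the response element. Ifi27, Mx1, Mx2, Rtp4 and Usp18 had no entry. Among the tested members with an entry, 9 held a match to the response element and 10 held none. Of the 9, 4 had a higher and 5 a lower mean in the Dusp8-deficient group, and of the 10, 5 and 5. The search took only the exact letters given above, so that no match does not mean no element.

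Array names follow the column headings of the deposited table. The Dusp8-deficient arrays are ko_108, ko_125, ko_148 and ko_168, and the control arrays wt_136, wt_145 and wt_177. Dusp8 itself had a deposited signal of 77 to 104 units in the former and 540 to 624 units in the latter, and was 5.72-fold lower (limma, adjusted p = 0.00963). With any 1 of ko_148, ko_168, wt_136, wt_145 and wt_177 left out its adjusted p was 0.0574 to 0.118 (limma), while the log2 fold change stayed between -2.53 and -2.49. Between 12295 and 13976 probes were detected per array. Array ko_108 stood apart. Its mean signal was the lowest (58.0 units against 60.6 to 74.9 units). The average deviation of its 8 measured arcuate markers from their 7-array mean was -1.11 log2 units. Only 4 of the 8, Npy, Cartpt, Ghrh and Th, had their lowest value there. Sst (1172 units against 1091 to 1630) and Tac2 (28 units against 4 to 34) were not low. The same average was 1.14 for its 13 oligodendrocyte markers, and all 13 had their highest value there. The main comparisons below are therefore given with and without that array. Of the 9 arcuate markers listed, 8 had a probe and all 8 were detected, and none of the probes is named Agrp.

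No gene of the interferon response or of class I presentation passed the test between the genotypes. Of the 22 tested members, 11 had a higher and 11 a lower mean in the Dusp8-deficient group, and the median log2 fold change was 0.01, against -0.0019 over all tested probes. Differences are means of normalised log2 signal, Dusp8-deficient minus control, fitted with limma. The smallest adjusted p of a member was 0.996 (limma, Benjamini-Hochberg over all tested probes). An adjusted p below 0.05 was reached by 0.00711% of all tested probes, which is the 1 probe of Dusp8. An unadjusted p below 0.05 was reached by 1 member, Oasl2, against 4.81% of all tested probes. The groups did not overlap for 1 member, Bst2, against 5.57% of all tested probes. These shares do not set the members apart from the background.

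The 95% intervals give the precision of each difference before adjustment. They do not give the size a difference needed to pass, since passing also required adjustment over all 14067 tested probes. The interval of Oasl2 (-1.73 to -0.12) excluded 0, yet its adjusted p was 0.996 (limma). The median half-width of the 95% interval was 0.63 log2 units (1.55-fold) for the members and 0.57 log2 units for all tested probes. For 16 of the 22 members (72.7%) the interval lay within a 2-fold change in either direction, against 76.8% of all tested probes. The 6 others, with a wider or more shifted interval, were Irf1, Irf9, Oasl2, Ifit2, Rtp4 and Lgals3bp. Intervals of dim probes depend on the offset added to the signal in normalisation. Bst2 read -0.38 (SE 0.20) with the offset of 16 used here, and -0.17 (SE 0.098) with an offset of 50.

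Without ko_108, 14 members were higher and 8 lower, and the median log2 fold change was 0.12 against 0.01 over all tested probes. Again no member passed, with a smallest adjusted p of 0.953 (limma), while 0.00711% of all probes did. One member, Rtp4, had an unadjusted p below 0.05, against 5.10% of all probes. The groups did not overlap for 2 members, Rtp4 and Bst2, against 10.2% of all probes. The sign of 3 values turned between these fits, those of Irf1, Ddx58 and Ifit3. Irf1 had the largest shift of the 22, from -0.47 (SE 0.48) to 0.05 log2 units. Members that stayed positive but moved by over 1.5 times, beside those given with their gene below, went to 0.31 (Isg15), 0.35 (Usp18), 0.12 (Gbp2), 0.32 (Gbp3), 0.15 (Xaf1) and 0.19 (H2-K1), and H2-D1 went to -0.090.

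**Figure D1:**
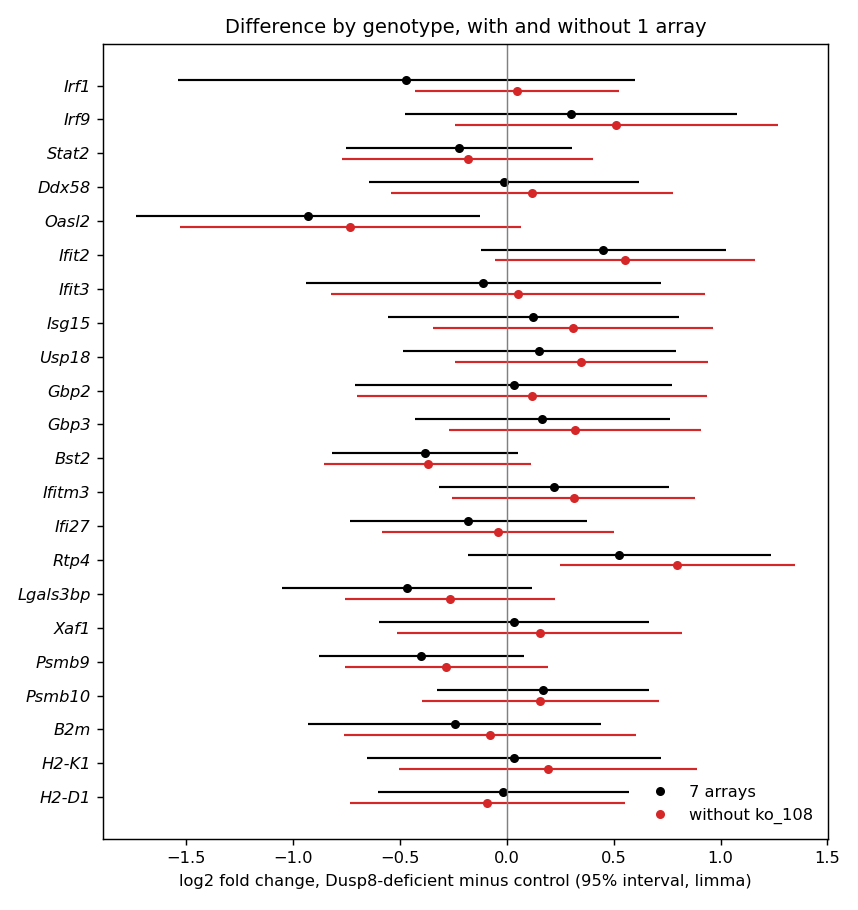
Log2 fold change of each tested member, Dusp8-deficient minus control, with its 95% interval from limma, over all 7 arrays (black) and without ko_108 (red). Every black interval but that of Oasl2 crosses 0, and without ko_108 every interval but that of Rtp4 does.

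Among the transcription factors, Irf1 and Irf9 varied between arrays more than between genotypes. Irf1, which interferon gamma induces and which switches on antigen presentation genes, had a deposited signal of 34, 213, 223 and 259 units in ko_108, ko_125, ko_148 and ko_168, and of 220, 226 and 157 units in the controls. Array ko_108 alone was low, at 5.76 on the normalised log2 scale against 7.60 to 8.03 in the other 6 arrays. Of the other tested Irf1 probes, ko_108 was the lowest array on 1 and not on the other 2. A second probe read 23 units in ko_108 against 5 to 55 in the others, and another read 17 against 3 to 66. Their log2 fold changes were 0.25 (SE 0.34) and 0.12 (SE 0.38), without passing (limma). The dimmest tested Irf1 probe read 1 unit in ko_108 against 2 to 21 in the others, with -0.15 (SE 0.27) over all arrays and -0.040 without ko_108. Irf9, the DNA-binding subunit of the type I complex, read 39, 124, 64 and 117 units in the Dusp8-deficient arrays and 97, 58 and 32 in the controls, with a log2 fold change of 0.30 (SE 0.35). Without ko_108 it was 0.51, and without wt_177 it was 0.032. The groups overlapped over nearly their whole range. Stat2, its partner, read 5 to 13 units and 7 to 25 units, with a log2 fold change of -0.22 (SE 0.24), and 5 of the 7 arrays detected it. Irf7, which amplifies interferon production, was detected in no array.

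Oasl2, of the oligoadenylate synthetase family that responds to double-stranded RNA, was the member with the largest difference between the genotypes, without passing. Its signal was 25, 57, 74 and 73 units in the Dusp8-deficient arrays and 214, 66 and 89 in the controls. One control, wt_136, was high and ko_108 was low, and the groups overlapped, since wt_145 lay below ko_148 and ko_168. Mean normalised log2 signal was 6.08 ± 0.48 (SD, n = 4) in the former and 7.01 ± 0.70 (SD, n = 3) in the latter. This is a log2 fold change of -0.93 (SE 0.36, 95% interval -1.73 to -0.12), with an unadjusted p of 0.0278 and an adjusted p of 0.996 (limma). The exact permutation p over the 35 splits was 0.114, two-sided. Without ko_108 the value was -0.73, and without wt_136 it was -0.55, so that the value over all arrays was 1.70 times as large on the log2 scale. A second Oasl2 probe read 12, 52, 93 and 40 units against 84, 50 and 48, with a log2 fold change of -0.43 (SE 0.36) that became -0.13 without ko_108. On that probe ko_148 was the highest of all arrays. Ddx58, which encodes the RNA sensor RIG-I, read 2 to 25 units with Dusp8 deficiency and 1 to 21 in the controls, with a log2 fold change of -0.01 (SE 0.28). The related sensor gene Ifih1 and the synthetase gene Oas1a were detected in no array. Oasl1, which restrains Irf7 translation in mice, was detected only in wt_136, at 14 units and 13 units on 2 probes.

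The Ifit genes encode proteins that bind foreign RNA and block its translation. Ifit2 read 38, 87, 77 and 42 units in the Dusp8-deficient arrays and 50, 22 and 40 in the controls. Only ko_125 and ko_148 lay above every control. Its log2 fold change was 0.45 (SE 0.26, unadjusted p = 0.110, limma), and 0.24 (SE 0.23) on a dimmer probe. Ifit3 read 46, 176, 121 and 34 units against 92, 82 and 77. The same arrays, ko_125 and ko_148, were high and ko_108 and ko_168 low, with the controls close together between them. The SD of its log2 signal was 0.78 in the Dusp8-deficient group (n = 4) and 0.04 in the controls (n = 3), and the log2 fold change was -0.11 (SE 0.37). Other Ifit3 probes read -0.44 and -0.20 log2 units. Ifit1 was detected in 1 Dusp8-deficient array and 1 control and was not tested. The GTPase genes Mx1 and Mx2 were detected in no array. Many inbred mouse strains, C57BL/6J among them, carry defective alleles of both.

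**Figure D2:**
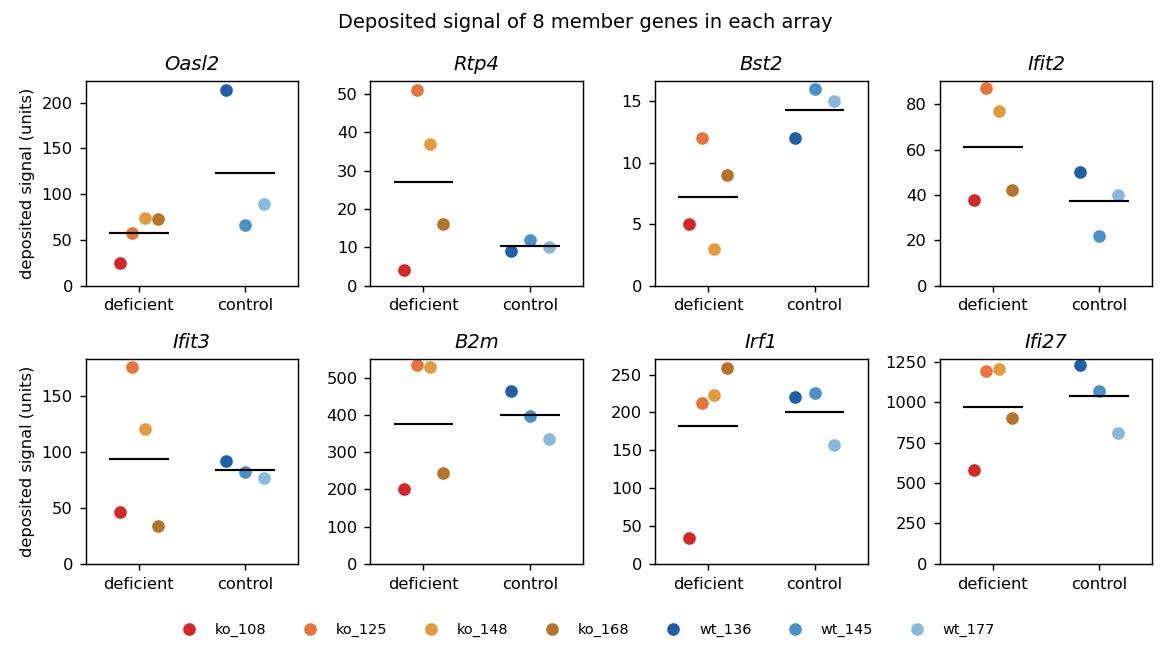
Deposited signal in linear units of 8 members on their brightest tested probe, 1 point per array, with Dusp8-deficient arrays on the left and controls on the right of each panel. Horizontal lines are group means. Irf1 is low in ko_108 alone, at 34 units, and Ifit3 and B2m are low in both ko_108 and ko_168.

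Isg15 encodes a ubiquitin-like modifier, and Usp18 the protease that removes it and damps the interferon receptor. Isg15 read 10, 28, 32 and 42 units in the Dusp8-deficient arrays and 19, 36 and 13 in the controls, with a log2 fold change of 0.12 (SE 0.31). Usp18 read -2, 22, 10 and 20 units against 16, 10 and 0, with 0.15 (SE 0.29). On the normalised scale both were lowest in ko_108 and highest in ko_168. The guanylate-binding proteins are GTPases that act on pathogens inside cells. Gbp2 read 13, 19, 59 and 13 units against 25, 11 and 27, so that ko_148 alone was high. Its log2 fold change was 0.03 (SE 0.33), while a dimmer Gbp2 probe, above background in 1 Dusp8-deficient array and 2 controls, read -0.54 (SE 0.23, unadjusted p = 0.0436, adjusted p = 0.996, limma). The 2 tested Gbp3 probes read 0.17 (SE 0.27) and 0.16 (SE 0.25), with ko_125 and ko_148 high on both. Each was above background in 2 Dusp8-deficient arrays and 1 control.

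Bst2, whose product tethers budding virus to the cell surface, was the one member whose brightest probe showed no overlap between the groups over all 7 arrays. Its signal was 5, 12, 3 and 9 units in the Dusp8-deficient arrays and 12, 16 and 15 in the controls. The deposited values of ko_125 and wt_136 were equal, and on the normalised log2 scale the nearest arrays were ko_168 at 4.74 and wt_136 at 4.75. The log2 fold change was -0.38 (SE 0.20, unadjusted p = 0.0787, adjusted p = 0.996, limma), and the exact permutation p was 0.0571, two-sided, where 35 splits allow no less than 0.0286. The probe lay close to the background, with detection in 2 Dusp8-deficient arrays and in all 3 controls. Ifitm3, which blocks virus entry in endosomes, was bright in every array, with 143, 290, 247 and 185 units against 248, 151 and 133. The groups overlapped, and its log2 fold change was 0.22 (SE 0.24).

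Rtp4, an interferon-induced chaperone that brings G protein-coupled receptors such as opioid receptors to the cell surface, was the one member with an unadjusted p below 0.05 without ko_108. It read 4, 51, 37 and 16 units in the Dusp8-deficient arrays and 9, 12 and 10 in the controls. Each of ko_125, ko_148 and ko_168 lay above all controls, and ko_108 lay below them. The log2 fold change was 0.53 (SE 0.32, unadjusted p = 0.129, limma) over 7 arrays. Without ko_108 it was 0.80, a 1.74-fold difference, with an unadjusted p of 0.00944 and an adjusted p of 0.953 (limma). The log2 means were then 5.55 ± 0.38 (SD, n = 3) and 4.75 ± 0.12 (SD, n = 3), and the exact permutation p was 0.100, the smallest that 3 against 3 arrays allow. Ifi27, a small interferon-induced membrane protein, read 581, 1194, 1207 and 901 units against 1233, 1068 and 809. Its log2 fold change was -0.18 (SE 0.25), and 0.08 (SE 0.28) on a second probe. Without ko_108 these values were -0.042 and 0.25. Lgals3bp, a secreted galectin ligand, read 6, 41, 28 and 17 units against 36, 39 and 25, with -0.47 (SE 0.26) over 7 arrays and -0.26 without ko_108, so that ko_108 made the value 1.76 times as large. Xaf1, an interferon-induced antagonist of the apoptosis inhibitor Xiap, read 38, 118, 68 and 40 units against 56, 76 and 41, with 0.03 (SE 0.28). All 4 of these genes were lowest in ko_108. Ifi35 was detected in no array, and Ifi44 was named for no probe of the annotation used here.

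No class I presentation gene passed either. B2m, the light chain of every class I molecule, read 200, 533, 530 and 245 units in the Dusp8-deficient arrays and 464, 396 and 336 in the controls. Arrays ko_125 and ko_148 lay above all controls and ko_108 and ko_168 below them. A second bright probe repeated this order of high and low arrays, with 203, 471, 531 and 240 units against 477, 387 and 326, except that wt_136 lay between ko_125 and ko_148. The log2 fold changes were -0.24 (SE 0.31) and -0.28 (SE 0.29), and without ko_108 they were -0.078 and -0.14. Without ko_168 the first was -0.065, and without ko_125 it was -0.44. Another, dimmer probe read 0, 26, 40 and 29 units against 40, 46 and 40, with -0.71 (SE 0.33, unadjusted p = 0.0570, adjusted p = 0.996, limma) and -0.41 without ko_108, where the former is 1.74 times the latter. On that probe the groups did not overlap on the normalised scale, although the deposited values of ko_148, wt_136 and wt_177 were equal. The heavy chain genes H2-K1 and H2-D1 read 0.03 (SE 0.31) and -0.02 (SE 0.26) log2 units. Signals were 15, 22, 58 and 43 units against 31, 35 and 21 for H2-K1. For H2-D1 they were 44, 50, 29 and 44 units against 25, 52 and 45. A dimmer H2-K1 probe read -0.39 (SE 0.24). Class I heavy chain genes are near-identical over long stretches, so that a probe may read more than 1 of them, and their values are uncertain in that respect. H2-D1, unlike B2m, was not low in ko_108.

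The immunoproteasome subunits, which replace the constitutive catalytic subunits and change the peptides offered for presentation, did not pass either. Psmb9 read 8, 26, 26 and 14 units in the Dusp8-deficient arrays and 31, 21 and 28 in the controls, with -0.40 (SE 0.21, unadjusted p = 0.0936, limma) and -0.28 without ko_108. Psmb10 read 277, 368, 288 and 406 units against 231, 315 and 290, with 0.17 (SE 0.22), and a dimmer probe read -0.17 (SE 0.22). Psmb8 was detected in 2 of 3 controls and in no Dusp8-deficient array, at 4 to 8 units against 0 to 6 units, and was too dim to be tested. The peptide transporter gene Tap1 was detected in ko_125 alone, at 14 units, and was not tested. Of their constitutive counterparts, Psmb6 read -0.08 (SE 0.37) and Psmb7 -0.03 (SE 0.22) log2 units.

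The 10 members with a probe that were not tested had signals between -8 and 14 units on their 12 probes. Of these, 6 (Irf7, Ifih1, Oas1a, Mx1, Mx2 and Ifi35) were detected in no array, with signals between -8 and 5 units. The share of genes that could be tested was 68.8% among the members with a probe and 58.6% over all named genes of the array. A difference in the untested genes was not detectable at these signals.

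The highest and lowest arrays of a member lay a median of 1.08 log2 units apart, against 0.96 over all tested probes. The median size of the genotype difference was 0.20 log2 units, against 0.18. In ko_108, 11 of the 22 members had their lowest value, against 20.3% of all tested probes. They were Irf1, Stat2, Oasl2, Isg15, Usp18, Gbp3, Ifi27, Rtp4, Lgals3bp, Xaf1 and Psmb9. No member had its highest value there, against 18.1% of all probes. Array ko_125 held the highest value of 8 members (36.4%), against 14.5% of all probes, among them Ifit2, Ifit3, Rtp4, Xaf1 and B2m. On average the members lay at -0.46 log2 units in ko_108, 0.21 in ko_125, 0.15 in ko_148 and 0.004 in ko_168 relative to the mean of the arrays, and between -0.02 and 0.08 in the controls. In whole tissue, fewer cells of a type and less RNA per cell cannot be told apart.

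**Figure D3:**
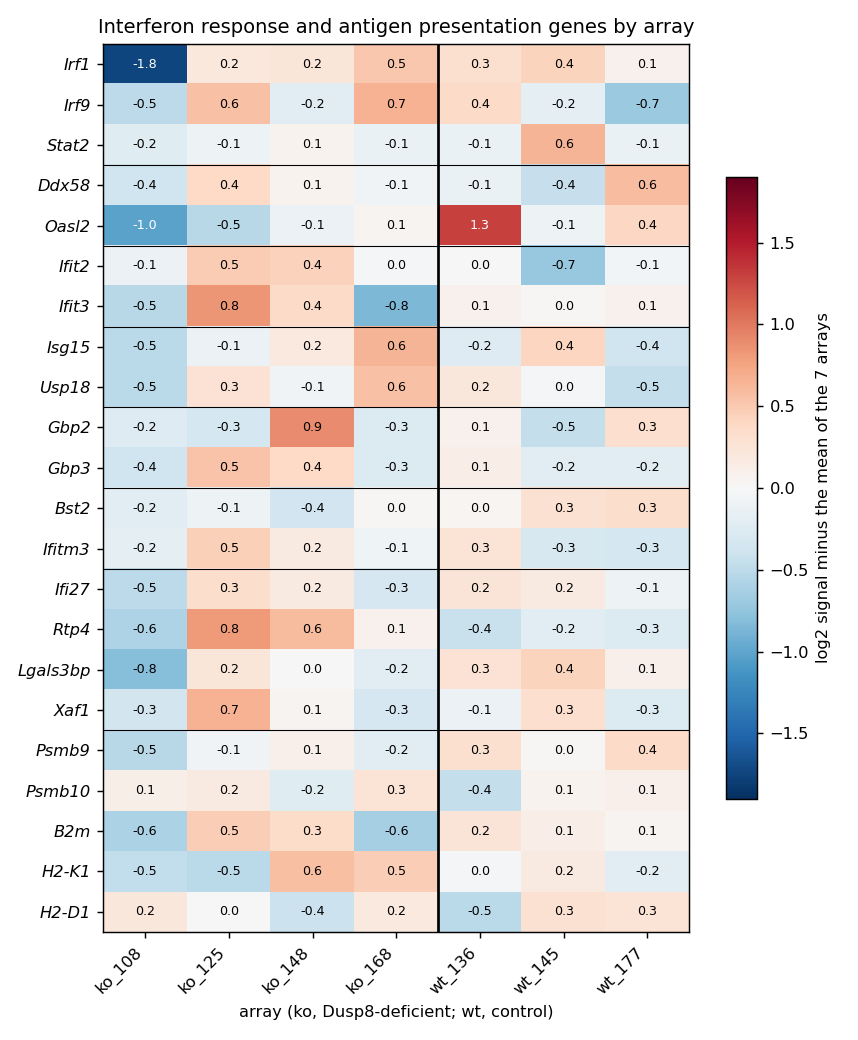
Normalised log2 signal of each tested member minus its mean over the 7 arrays, with Dusp8-deficient arrays left and controls right of the thick line and roles separated by thin lines. The ko_108 column is the lowest in 11 of the 22 rows and the highest in none, and Oasl2 is highest in wt_136.

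**Figure D4:**
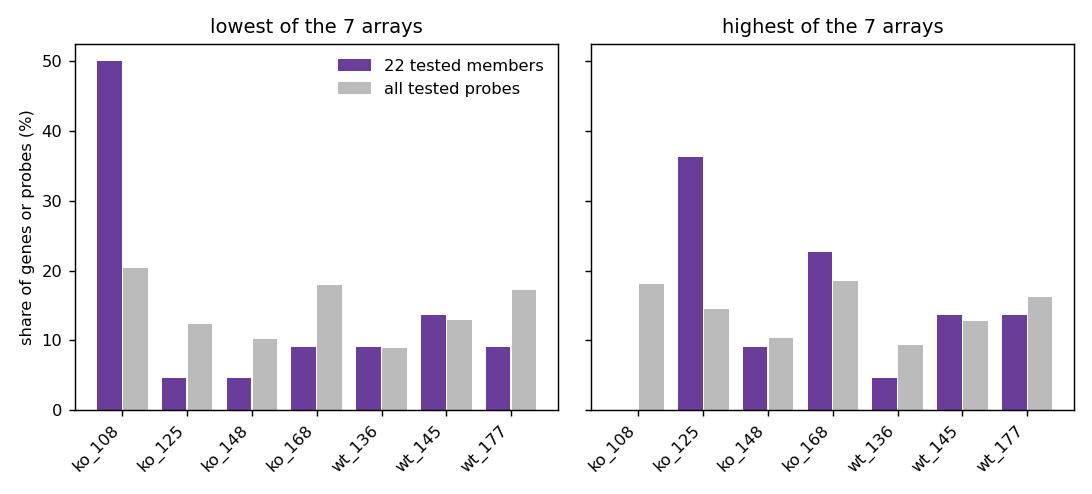
Share in percent of the 22 tested members (purple) and of all 14067 tested probes (grey) that had their lowest (left) or highest (right) value in each array. The members exceed the grey bars by most in ko_108 on the left (11 of 22 members, against 20.3% of probes) and in ko_125 on the right (36.4% against 14.5%). Smaller excesses lie in other arrays, such as ko_168 on the right (22.7% against 18.6%).

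Most members with their lowest value in ko_108 belong to the interferon response. Of the 17 interferon response members, 10 were lowest there, with a mean of -0.52 log2 units, and of the 5 presentation members 1 was, with a mean of -0.25. The difference between these subsets was not tested. Markers of the cells that could carry the response gave the following values. Each log2 value is the mean over the tested markers of a list. The 13 tested microglia and macrophage markers averaged between -0.05 and 0.08 log2 units in every array. In ko_108, 2 of the 13 had their lowest value and 1 its highest. The summed deposited signal of all 16 with a probe was 1910 units in ko_108 and 2484 to 2685 units in ko_125, ko_148 and ko_168. It was 1829 to 2657 units in the controls. Each of the 16 was detected in at least 1 array. The 10 tested endothelial markers lay at 0.28 in ko_108 and between -0.17 and 0.11 elsewhere, with Cdh5 and Tie1 detected in no array. The sum of all 12 with a probe ranged from 827 to 992 units with Dusp8 deficiency and from 656 to 877 units in the controls. Of 13 lymphocyte markers with a probe, 2 were tested and 7 were detected in no array, among them Cd3d, Cd3g, Cd4, Ptprc and Ms4a1, and the sum of all 13 was 28 to 69 units against 20 to 36. The 11 markers of meninges and fibroblasts lay at -0.22 in ko_108, 0.20 in ko_125, 0.22 in ko_148 and 0.10 in ko_168, and between -0.31 and 0.31 in the controls. Their sum was 1693 units in ko_108, 2543 to 2878 units in ko_125, ko_148 and ko_168, and 1637 to 3023 units in the controls. The 9 astrocyte markers lay at 0.33 in ko_108 and between -0.22 and 0.06 elsewhere, and summed to 4610 to 5334 units against 4443 to 4550. All markers of both lists with a probe were tested. The 14 oligodendrocyte markers with a probe summed to 7502 units in ko_108 against 2536 to 4632 in the other arrays, and the arcuate markers to 1594 against 3405 to 4703. The part of the oligodendrocyte, astrocyte, endothelial, meningeal and arcuate differences, and of the low mean signal, in the low interferon values of ko_108 was not tested.

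**Figure D5:**
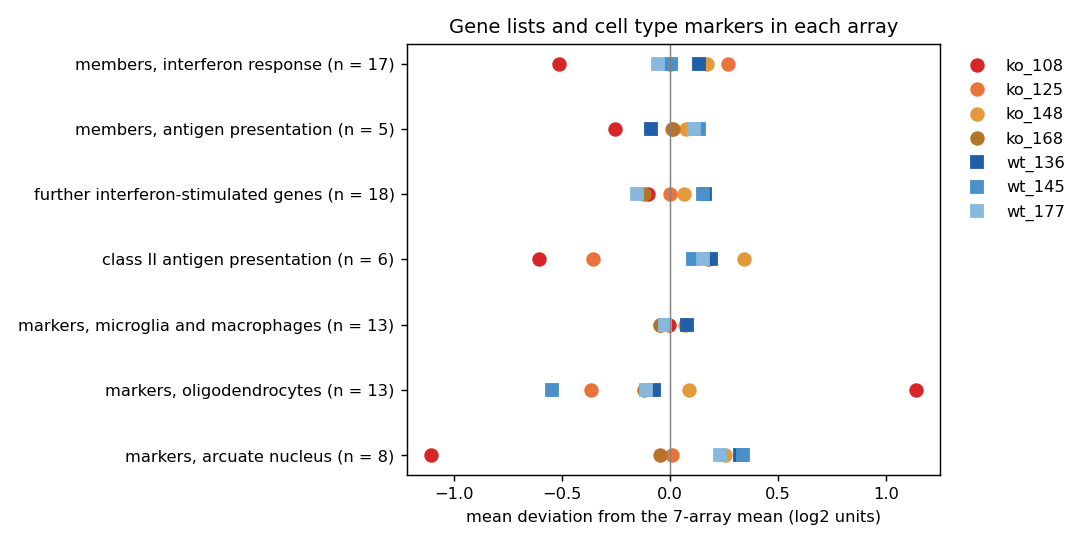
Mean deviation from the 7-array mean, in log2 units, of gene lists and cell type markers in each array (circles, Dusp8-deficient; squares, controls). The interferon response members lie lowest in ko_108, at -0.52, where the arcuate markers lie at -1.11 and the oligodendrocyte markers at 1.14, and the microglia markers lie near 0 in every array.

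Genes around the members gave no call. Of 16 tested interferon receptors and Jak-Stat transducers, 5 were higher and 11 lower, with a median log2 fold change of -0.06. The smallest p values belonged to Irf5 at -0.80 (SE 0.38), the shared receptor chain Il10rb at -0.42 (SE 0.24) and the type I receptor chain Ifnar2 at -0.58 (SE 0.36). The Irf5 signal was 57 units in wt_177, 19 in wt_136 and 3 to 11 elsewhere, on a probe detected in 3 arrays. Of 8 tested sensors and adaptors, 5 were higher and 3 lower (median 0.03), with the adaptor Mavs at -0.47 (SE 0.29), Myd88 at 0.23 (SE 0.31) and Tlr3 at 0.16 (SE 0.25). Of 50 further interferon-stimulated genes 43 had a probe and 18 were tested, with 6 higher and 12 lower and a median of -0.08. Eif2ak2, the RNA-dependent kinase that halts translation, read 48, 161, 182 and 195 units in the Dusp8-deficient arrays and 262, 228 and 152 in the controls. It was low in ko_108 like Irf1 and Oasl2, and its log2 fold change of -0.70 (SE 0.35) was -0.36 without that array, a ratio of 1.96. Rsad2, an antiviral enzyme, went the other way in ko_108, with 24 units against 0 to 10 in the other arrays, and read 0.44 (SE 0.27). Gbp4 read -0.39 (SE 0.25). These 18 genes lay at -0.10 log2 units in ko_108, -0.12 in ko_168 and -0.15 in wt_177, with 5, 5 and 4 of them lowest there. Array ko_108 was thus not the lowest of this list. Without ko_108 the median was -0.04 for the receptors and transducers, with 6 higher and 10 lower. For the sensors and adaptors it was then 0.04, with 4 higher and 4 lower, and for these 18 genes -0.11, with 7 higher and 11 lower.

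Of 13 tested genes of a further class I list, 6 were higher and 7 lower (median -0.0036). Without ko_108, 8 were higher and 5 lower (median 0.083). Both counts include H2-Ke6, which is not a class I presentation gene, at -0.082 over all arrays and 0.048 without ko_108. Over all arrays the peptide-trimming enzyme Erap1 read 0.40 (SE 0.24), and the chaperones Canx -0.29 (SE 0.21) and Calr 0.39 (SE 0.31). Class II presentation, which microglia and macrophages use, had 1 gene higher and 5 lower of 6 tested, with a median of -0.35. Without ko_108 the median was -0.17, which the median over all arrays exceeded 2.03 times, with 2 higher and 4 lower. H2-Aa read 5, 24, 72 and 74 units against 112, 32 and 48, with -0.61 (SE 0.51), and H2-Ab1 5, 41, 80 and 24 units against 42, 48 and 59, with -0.57 (SE 0.39). Both were lowest in ko_108, and without it the value of each was -0.24, which the value over all arrays exceeded 2.53 times for H2-Aa and 2.38 times for H2-Ab1. H2-Eb1 was bright in wt_145 alone, at 51 units against 0 to 9, and read -0.59 (SE 0.37). None of the genes of these lists passed (limma, adjusted p = 0.996 for the smallest of each list).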

How the data were processed

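Total RNA was amplified, biotin-labelled and hybridised to Illumina bead arrays, per the labels' protocols and the probe identifiers. The main values are the non-normalised probe intensities that the authors deposited, per the file headers, whole numbers that go below 0 after background subtraction. Each intensity comes with a deposited detection p-value, per the file headers. The sources used here do not name the software. The authors' processed table, quantile-normalised as judged from its values, served as an alternative. Its columns carry replicate numbers, and those of the signal table do not.

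Intensities were normalised with neqc of limma 3.58.1 (R 4.3.3; offset 16, quantile, log2). Each tested probe was fitted with lmFit and eBayes, two-sided, with Benjamini-Hochberg adjustment over all 14067 tested probes and a threshold of 0.05. The brightest tested probe stood for a gene. Without ko_108 the same probes were renormalised and refitted. The number of arrays limits the precision. Of 25697 probes, 23978 had 1 gene symbol and 1719 had none. Symbols are those of the platform annotation. The test was checked on simulated data. Those data held many changed probes and no outlying array, unlike the arrays here. The members and lists were chosen with earlier results of these data known, and no list was tested as a set. The rule named all members, Dusp8, and up to 3 genes of smallest p of each further list. Alternatives changed background, normalisation, filter, variance model, array weights, value table and arrays.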

Additional observations from a re-analysis of the deposited data

Results flagged for a closer look

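By Dixon's criterion, 3 of 26 quantities had 1 outlying array among the 4 Dusp8-deficient arrays. By chance about 1 in 20, or 1.3, would be found. The log2 signal of Irf1 was 5.76 in ko_108 against 7.71 to 8.03 in the others. That of Gbp2 was 6.12 in ko_148 against 4.90 to 4.98. The mean deposited signal was 58.0 units in ko_108 against 73.4 to 74.9 units. Array ko_108 had already been set apart by this same mean, and the controls wt_177 and wt_145 read 60.6 and 67.5 units. Groups of 3 such as the controls were not examined.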

How the results depend on the processing

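Under every alternative run, 0 members passed, with adjusted p values of 0.741 or more (limma). An unadjusted p below 0.05 was reached by 0 to 2 members, against 3.70% to 5.99% of all probes fitted (limma). The median log2 fold change of the members ran from -0.09 to 0.12, and was -0.03 with all tested probes of a gene averaged. Oasl2 kept its sign throughout, between -1.24 and -0.55. Of the 22 tested members, 11 kept their sign in all alternatives run, and the others turned in at least 1.

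With 1 array left out, the log2 fold change ran from -0.23 to 0.28 for Ddx58, -0.26 to 0.21 for Gbp2, -0.28 to 0.12 for H2-D1, -0.15 to 0.21 for H2-K1, -0.41 to 0.16 for Ifit3, -0.70 to 0.048 for Irf1, -0.069 to 0.36 for Isg15, -0.0069 to 0.27 for Psmb10, -0.36 to 0.035 for Stat2, -0.032 to 0.35 for Usp18 and -0.18 to 0.20 for Xaf1. Array quality weights turned Ddx58 to 0.13 and Ifit3 to 0.078. Ddx58 was also 0.027 with cyclic loess, 0.023 with median scaling and 0.029 without a background step, and H2-D1 was 0.026 with median scaling. The cause of these turns was not tested. The adjusted p of Dusp8 was 0.141 without the filter on dim probes, 0.411 with each probe's own variance and 0.122 with the replicate block (limma), at log2 fold changes of -2.52, -2.52 and -2.42.

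In the processed table, replicates 1 to 3 of each group gave a median of -0.05 and 0 passing members both with and without the replicate number as a block. These fits leave out replicate 4 of the Dusp8-deficient group. In both, Ddx58 was 0.0068, Ifit3 0.15, H2-K1 -0.075, Isg15 -0.058 and Usp18 -0.035. With every sample of the processed table, the values were -0.0033, -0.081, 0.039, 0.092 and 0.096 in the same order. Those have the signs of the main fit. The fit without the block and the fit with every sample differ only in replicate 4 of the Dusp8-deficient group. What sets that sample apart was not tested. Deviations of same-numbered samples correlated at -0.07, 0.09 and -0.02, so the numbers share no visible pairing. With 4 against 3 arrays, differences smaller than the intervals given were not detectable. Larger ones could also fail to pass after adjustment over all tested probes, as that of Oasl2 did. Members near the background, such as Bst2, Stat2 and Usp18, are limited further by their dim signal.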
